A study of Mus musculus with 19 samples.

Results

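Naive 1 is a cluster of CD8 T cells, named by the authors, that lay almost wholly in spleen: 2238 of the 41099 cells in the deposited table carried the name, 2204 of them in spleen libraries and 34 in tumour libraries. Its members were taken by that name alone, and it is 1 of 13 cluster names and 1 of 3 that begin with Naive, beside Naive 2 with 3144 cells and Naive 3 with 5571. Naive CD8 T cells have left the thymus but have not yet met their antigen. They circulate between blood and lymphoid organs such as the spleen, guided in part by the chemokine receptor Ccr7, and transcription factors such as Lef1 help to hold them in the naive state. They are small, rest outside the cell cycle, carry little RNA, and each bears its own rearranged T cell receptor (TCR), so that identical receptors are rare among them. Ccr7 and Lef1 are the markers given for the cluster, but gene expression per cell was not analysed here, so the name could not be checked against them and is used as the authors' name.

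The cells came from C57BL/6J mice injected with A223, a squamous cell carcinoma line of C57BL/6 origin. Tumours were digested with liberase and CD8 T cells were sorted by flow cytometry, and spleen T cells were taken as well, from mice labelled by a regressing or a growing tumour. In all, 9 expression libraries and 8 receptor libraries were made. The spleen libraries were regressing replicates 2 and 3 and growing replicate 3, and the tumour libraries were replicates 1, 2 and 3 of each state. Among the expression libraries, those of regressing and growing tumour replicate 1 came from 3′ capture and the remaining 7 from 5′ capture. Each spleen is labelled by the state of a tumour, and no library is labelled as tumour-free. The age and sex of the mice, the number of animals per library and whether a tumour and a spleen of one number came from one mouse are not given in the sources used here, so p-values measure the spread between these libraries.

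Total UMIs, the counted RNA molecules, ranged from 10611320 to 58661165 per library. The 3 spleens had medians of 4638.5, 6447.5 and 6239 UMIs per cell in regressing replicates 2 and 3 and growing replicate 3, so regressing replicate 2 was the shallowest. A cell barcode of another library was carried by 115 Naive 1 cells (5.14%), near the 4.83% of all cells, and 4 of the 115 shared it with another Naive 1 cell.

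Naive 1 made up a similar part of each spleen. It held 873 of 6598 cells in regressing spleen replicate 2, or 13.2% (exact Clopper-Pearson 95% interval 12.4 to 14.1). It held 743 of 6020 cells in regressing spleen replicate 3, or 12.3% (11.5 to 13.2), and 588 of 3939 in growing spleen replicate 3, or 14.9% (13.8 to 16.1). These intervals, like those below, cover counting error only. The growing spleen was the highest and its interval lay above that of regressing replicate 3, but with 1 growing spleen the states were not tested.

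As a part of the naive cells alone, Naive 1 was steadier than the other naive clusters. It made up 21.8%, 23.5% and 21.4% of naive cells in regressing spleen replicates 2 and 3 and growing spleen replicate 3, a mean of 22.2% ± 1.10 (SD, n = 3). Naive 2 ranged from 25.7% to 36.0% in the same libraries (31.7% ± 5.32), and Naive 3 from 42.6% to 50.8% (46.1% ± 4.22). The high share of Naive 2 and the low share of Naive 3 were both in the growing spleen, and the reverse held in regressing replicate 3. The spreads of the 3 clusters were not tested against each other.

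**Figure D1:**
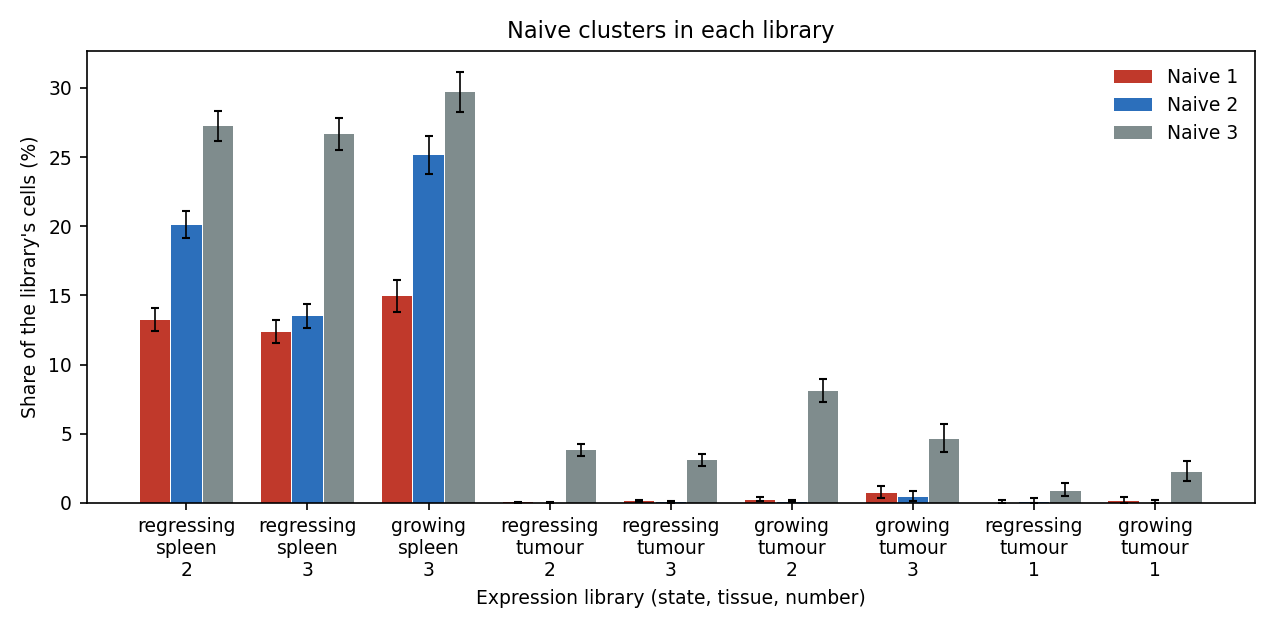
Bars give the share of each library's cells (%) named Naive 1, Naive 2 or Naive 3 in the 9 expression libraries, with exact 95% intervals as error bars. Naive 1 holds 12.3% to 14.9% of cells in the 3 spleens and under 1% in each of the 6 tumours, while Naive 3 is the one naive cluster that is plainly visible in tumours.

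Naive 1 was nearly missing from tumours. It held 2 of 7832 cells (0.0255%) in regressing tumour replicate 2 and 9 of 7276 (0.124%) in regressing tumour replicate 3. It held 9 of 4262 cells (0.211%) in growing tumour replicate 2 and 12 of 1727 (0.695%) in growing tumour replicate 3. In the 3′ libraries regressing tumour replicate 1 had 0 of 1655 cells (3 cells would make 0.181%) and growing tumour replicate 1 had 2 of 1790 (0.112%). The lowest spleen share was far above the highest tumour share, so the tissues did not overlap.

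Over the 5′ libraries, Naive 1 averaged 13.5% ± 1.31 of spleen cells (SD, n = 3) and 0.264% ± 0.297 of tumour cells (SD, n = 4), a ratio of 51.2. The two-sided exact permutation test gave p = 0.0286, the smallest that 3 libraries against 4 allow, and a Benjamini-Hochberg adjusted p = 0.0531 over the 13 clusters. No cluster (0%) passed an adjusted p of 0.05 in this exact test, and 7 of 13 had an unadjusted p under 0.05. Libraries of the tissues did not overlap in 9 of 13 clusters (69.2%), and 3 of these 9 were higher in spleen (23.1% of the 13), namely the 3 naive clusters. With the 3′ tumours added, the exact test gave an adjusted p = 0.031 for Naive 1. Since no spleen was captured at 3′, that set mixes capture kit with tissue, and more libraries allow a smaller p.

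Within naive cells the tissues also differed. Naive 1 made up 0.667% and 3.83% of naive cells in regressing tumour replicates 2 and 3, and 2.52% and 12.1% in growing tumour replicates 2 and 3. The mean was 4.78% ± 5.06 (SD, n = 4), against the 22.2% of the spleens (exact permutation p = 0.0286). Growing tumour replicate 3 was the highest of the tumours, with 12 of 99 naive cells. Naive 3 took most of what was left, with 80.8% to 99.3% of naive cells in these 4 tumours. On the logit scale the exact permutation p was 0.0571, and with any 1 library left out the smallest p the design allows is above 0.05. Fewer cells of a type in a tumour and fewer of them kept through digestion and sorting cannot be told apart here.

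Between the tumour states, Naive 1 held 0.339% ± 0.312 of cells in growing and 0.0497% ± 0.0653 in regressing tumours (SD, n = 3 each; exact permutation p = 0.20, adjusted p = 0.52 over 13 clusters). The libraries of the states overlapped for Naive 1, while for 4 of the 13 clusters (30.8%) they did not. Growing replicate 3 carried much of the gap, which was 0.290 percentage points with it and 0.112 when it was left out.

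Naive 1 cells carried little RNA, and they reached further down than the other naive clusters. In regressing spleen replicate 2 the median was 3960 UMIs per cell, against 4027 in Naive 2 and 5080 in Naive 3. In regressing spleen replicate 3 it was 5468 UMIs, against 5978.5 and 6931. In growing spleen replicate 3 it was 5526 UMIs, against 5621 and 6252. In each spleen Naive 1 was thus the lowest of the naive clusters, close to Naive 2 and further below Naive 3. Among all 13 clusters it ranked 2, 3 and 1 from the lowest in regressing replicates 2 and 3 and growing replicate 3. Initial Activation was lower in the regressing spleens, at 3920 and 4642.5 UMIs. In regressing replicate 3 Activated Exhausted was lower too, at 5448.5. The mean difference of Naive 1 was -224 ± 248 UMIs from Naive 2 and -1103 ± 369 from Naive 3 (SD, n = 3). The first was within its spread, and it was -81.0 without regressing replicate 3 and 10.5 over cells with at least 1000 genes and under 5% mitochondrial UMIs. Since the clusters were made from the expression of the same cells, these differences, and those in genes, mitochondrial share, scores and phases, are descriptions and were given no test.

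The number of genes detected per cell placed Naive 1 at the bottom of all 13 clusters in each of the 3 spleens. Median genes were 1302, 1752 and 1698.5 in regressing replicates 2 and 3 and growing replicate 3. Naive 2 had 1331.5, 1895.5 and 1735.5, and Naive 3 had 1500, 2023 and 1832. When cells of Naive 1 and Naive 3 were given the same mix over strata of UMIs per cell within a library, the gap in genes of -201 ± 68.8 became 8.67 ± 7.37 (SD, n = 3). At equal UMIs, then, the clusters had nearly equal numbers of genes. Against Naive 2 the gap of -70.0 ± 63.8 genes became -22.7 ± 18.5.

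**Figure D2:**
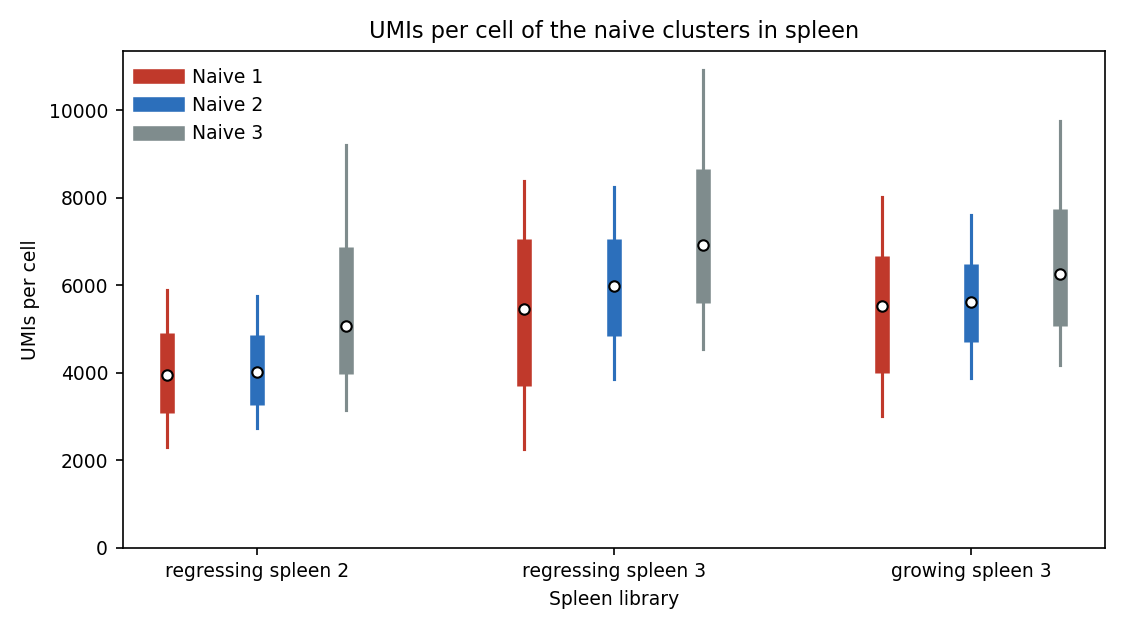
UMIs per cell (linear axis) of the naive clusters in the 3 spleen libraries, with thin lines from the 10th to the 90th percentile of cells, thick bars from the 25th to the 75th and circles at the median. Naive 1 reaches lower than Naive 2 and Naive 3 in each spleen, for example to a 10th percentile of 2252 UMIs in regressing replicate 3, where the Naive 2 value is 3854.

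The low tail set Naive 1 apart from Naive 2 more than the median did. The 90th percentile of UMIs was 2.56, 3.72 and 2.66 times the 10th in Naive 1 in regressing replicates 2 and 3 and growing replicate 3. In Naive 2 the same ratio was 2.10, 2.14 and 1.96, and in Naive 3 it was 2.92, 2.40 and 2.34, above that of Naive 1 in regressing replicate 2. Outside the naive clusters, Initial Activation had ratios of 3.42, 4.07 and 2.35. Its 10th percentile was 2302, 2173 and 4721 UMIs, against 2301, 2252 and 3009 in Naive 1. The low tail was thus shared with that cluster in the regressing spleens and not in the growing one. The upper ends were alike, with 90th percentiles in regressing replicate 3 of 8383 UMIs in Naive 1 and 8255 in Naive 2. Cells under 2000 UMIs made up 5.96%, 9.15% and 2.55% of Naive 1, against 1.51%, 0.614% and 0.101% of Naive 2. In Naive 3 they were 0.390% and 0.249% in the regressing spleens and 0 of 1169 cells in the growing spleen, where 3 cells would make 0.257%.

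Seen from the other side, Naive 1 held many of the poorest cells of the spleen. It took 52 of 148 cells under 2000 UMIs in regressing replicate 2, or 35.1% (exact 95% interval 27.5 to 43.4). It took 68 of 152 in regressing replicate 3, or 44.7% (36.7 to 53.0), and 15 of 23 in growing replicate 3, or 65.2% (42.7 to 83.6). Its share of all cells in those libraries was 12.3% to 14.9%. Of spleen cells with under 1000 genes it held 269 of 694, or 38.8%. The fewest genes in a Naive 1 cell of a spleen were 503, and the fewest in any cell of the table were 501, so the cluster reaches the lower edge of the deposited cells.

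The share of UMIs from mitochondrial genes, a measure that rises in damaged or dying cells, was slightly lower in Naive 1 than in the other naive clusters. Medians were 3.13%, 2.86% and 3.18% in regressing spleen replicates 2 and 3 and growing spleen replicate 3. They were 3.19%, 2.87% and 3.27% in Naive 2 and 3.24%, 3.01% and 3.26% in Naive 3. The differences had one sign in all 3 spleens but were small, at -0.0528 ± 0.0379 percentage points from Naive 2 and -0.115 ± 0.0329 from Naive 3 (SD, n = 3). At equal UMIs the second was -0.205 ± 0.0607. Within Naive 1 the median was higher in poorer cells, as in regressing replicate 3. There it was 3.44% under 2000 UMIs, 3.002% between 2000 and 3000 and 2.73% between 6000 and 8000. In the same spleen the Naive 2 median was 3.18% under 2000 UMIs, on 5 cells. It was 2.96% between 2000 and 3000 UMIs and 2.79% between 6000 and 8000. For Naive 3 the values in these last bins were 3.20% and 3.01%. Between these like bins the median was thus lower in the richer cells of all 3 clusters.

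Cell-cycle calls separated Naive 1 from Naive 2 and placed it beside Naive 3. A call of S or G2M is made when the cell's score over genes of that phase is above 0 and above the other score. In regressing spleen replicate 2, 198 of 873 Naive 1 cells were called S, or 22.7% (exact 95% interval 19.9 to 25.6), against 6.56% of Naive 2 and 19.9% of Naive 3. In regressing replicate 3 the S share was 17.5% (14.8 to 20.4), against 7.0% and 18.1%. In growing replicate 3 it was 17.5% (14.5 to 20.8), against 7.47% and 19.6%. Naive 1 was above Naive 2 by 12.2 ± 3.39 percentage points and level with Naive 3 (0.0172 ± 2.48; SD, n = 3), with the sign of the last difference turning between libraries. Pooled over the spleens, S calls covered 19.6% of Naive 1, 6.96% of Naive 2 and 18.8% of the cells of all clusters. The S share of Naive 1 was thus near that of the whole spleen, and Naive 2 lay below it.

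Calls of G2M, the phase from the end of DNA synthesis to division, were also far more frequent in Naive 1 than in Naive 2, and a little more frequent than in Naive 3. They covered 9.51%, 10.5% and 10.7% of Naive 1 cells in regressing spleen replicates 2 and 3 and growing spleen replicate 3. They covered 2.11%, 2.58% and 2.12% of Naive 2 and 8.90%, 8.22% and 7.87% of Naive 3. Naive 1 was above both in each of the 3 spleens, by 7.97 ± 0.600 and 1.91 ± 1.16 percentage points. With equal mixes of UMIs the gap to Naive 3 was 1.19 ± 1.86, and in regressing replicate 2 its sign turned (-0.616). Pooled over the spleens, G2M calls covered 10.2% of Naive 1, 2.24% of Naive 2 and 7.07% of the cells of all clusters.

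**Figure D3:**
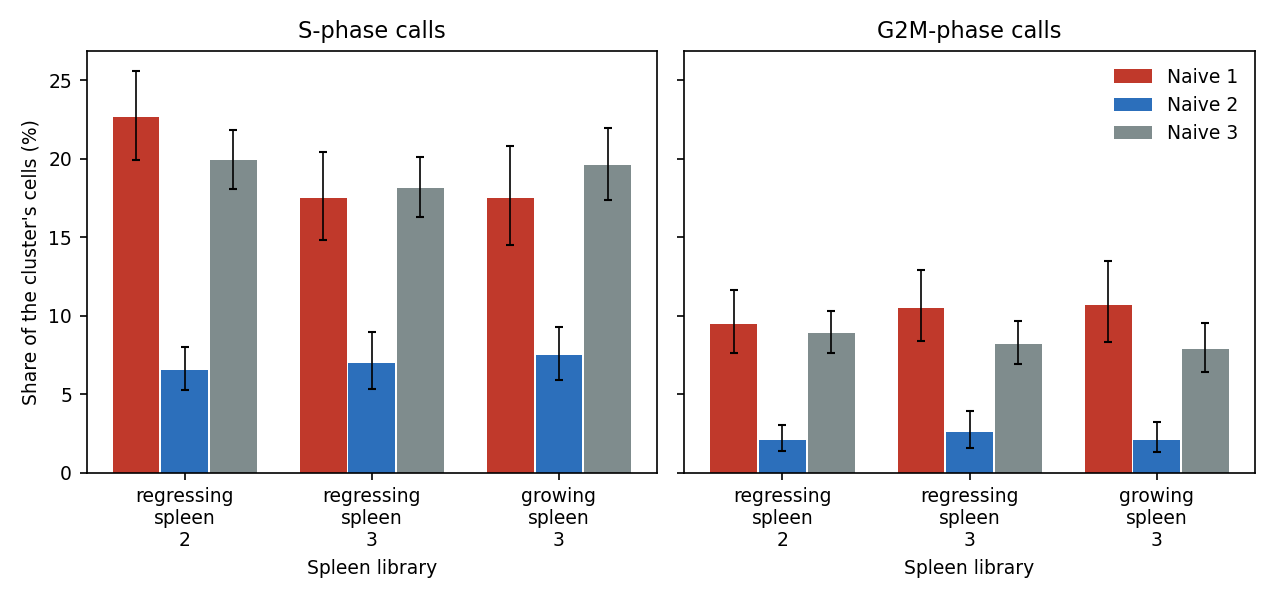
Share of cells (%) of each naive cluster called in S phase (left) and G2M phase (right) in the 3 spleen libraries, with exact 95% intervals as error bars. In both panels Naive 1 and Naive 3 stand well above Naive 2 in each spleen, with S calls in 17.5% to 22.7% of Naive 1 and 6.56% to 7.47% of Naive 2.

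The scores behind these calls were low. Median S scores of Naive 1 were below 0 in each spleen, at -0.0445, -0.0565 and -0.0514, between those of Naive 2 (-0.0823, -0.0848 and -0.0805) and those of Naive 3 (-0.0368, -0.0400 and -0.0369). Median G2M scores lay in the same order, at -0.0572, -0.0568 and -0.0550 in Naive 1, -0.0855, -0.0848 and -0.0834 in Naive 2, and -0.0467, -0.0482 and -0.0476 in Naive 3. Naive 1 cells called S had median S scores of 0.0312, 0.0320 and 0.0270. In Dividing 1, a cluster the authors named for division, S-called cells of the same spleens had medians of 0.303, 0.304 and 0.149. Typical S-called cells of Naive 1 thus lay a little above 0, and no cycling is read from these calls.

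Naive 1 had S calls about as frequent as those of Naive 3 with a lower median score, and its scores were more widely spread over cells. The SD of the S score over cells was 0.0593, 0.060 and 0.0589 in Naive 1 in the 3 spleens, against 0.0428, 0.0462 and 0.0460 in Naive 3 and 0.0532, 0.0578 and 0.0541 in Naive 2. Of the G2M score, the SD in Naive 1 was 0.0435, 0.0528 and 0.0458, against 0.0357, 0.0362 and 0.0350 in Naive 3. In Naive 2 it was closer, at 0.0419, 0.0434 and 0.0402. The highest G2M score of a Naive 1 cell in a spleen was 0.426, in regressing replicate 3, while the highest in Naive 3 was 0.107. In regressing replicate 2 and growing replicate 3 the highest of Naive 1 were 0.138 and 0.211.

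Within Naive 1 the S score was mostly higher in cells with more UMIs, while in Naive 3 it was nearly level. In regressing spleen replicate 2 the median S score of Naive 1 went from -0.0750 under 2000 UMIs to -0.0362 between 4000 and 6000 and -0.00952 between 6000 and 8000. In regressing replicate 3 it went from -0.0976 under 2000 to -0.0449 between 6000 and 8000 and -0.0340 between 8000 and 12000. In growing replicate 3 it went from -0.163 under 2000, a bin of 15 cells, to -0.0856 between 2000 and 3000 and -0.0267 between 8000 and 12000. Over bins of 20 or more cells, Naive 3 medians stayed between -0.0420 and -0.0331 in regressing replicate 2, between -0.0515 and -0.0381 in regressing replicate 3 and between -0.0389 and -0.0350 in growing replicate 3. In Naive 2 the medians were higher in richer cells of regressing replicate 2, from -0.101 under 2000 to -0.0599 between 8000 and 12000. In regressing replicate 3 the bins of 20 or more Naive 2 cells went from -0.105 between 2000 and 3000, on 21 cells, to -0.0845 between 8000 and 12000. From 3000 to 12000 they stayed between -0.0875 and -0.0840. In growing replicate 3 Naive 2 went from -0.0727 between 2000 and 3000 to -0.0841 between 4000 and 6000 and -0.0647 between 8000 and 12000. Naive 1 medians thus spanned a wider range than those of Naive 3 in each spleen. Naive 2 shared part of the gradient mainly in regressing replicate 2. The share of Naive 1 cells called S differed between bins in the same way, from 13.5% under 2000 to 44.2% between 6000 and 8000 in regressing replicate 2. The order was not complete, since the 19 cells between 8000 and 12000 in that library had a median of -0.0439, and in regressing replicate 3 the bin from 4000 to 6000 (-0.0612) lay under that from 3000 to 4000 (-0.0585). Phase calls and scores can also vary with depth and free RNA. With equal mixes of UMIs, Naive 1 stayed above Naive 2 by 12.9 ± 2.79 percentage points in S calls and by 0.0336 in median S score, against 12.2 and 0.0317 before, while the median S score difference from Naive 3 went from -0.0129 to -0.00741. The part of free RNA was not tested.

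**Figure D4:**
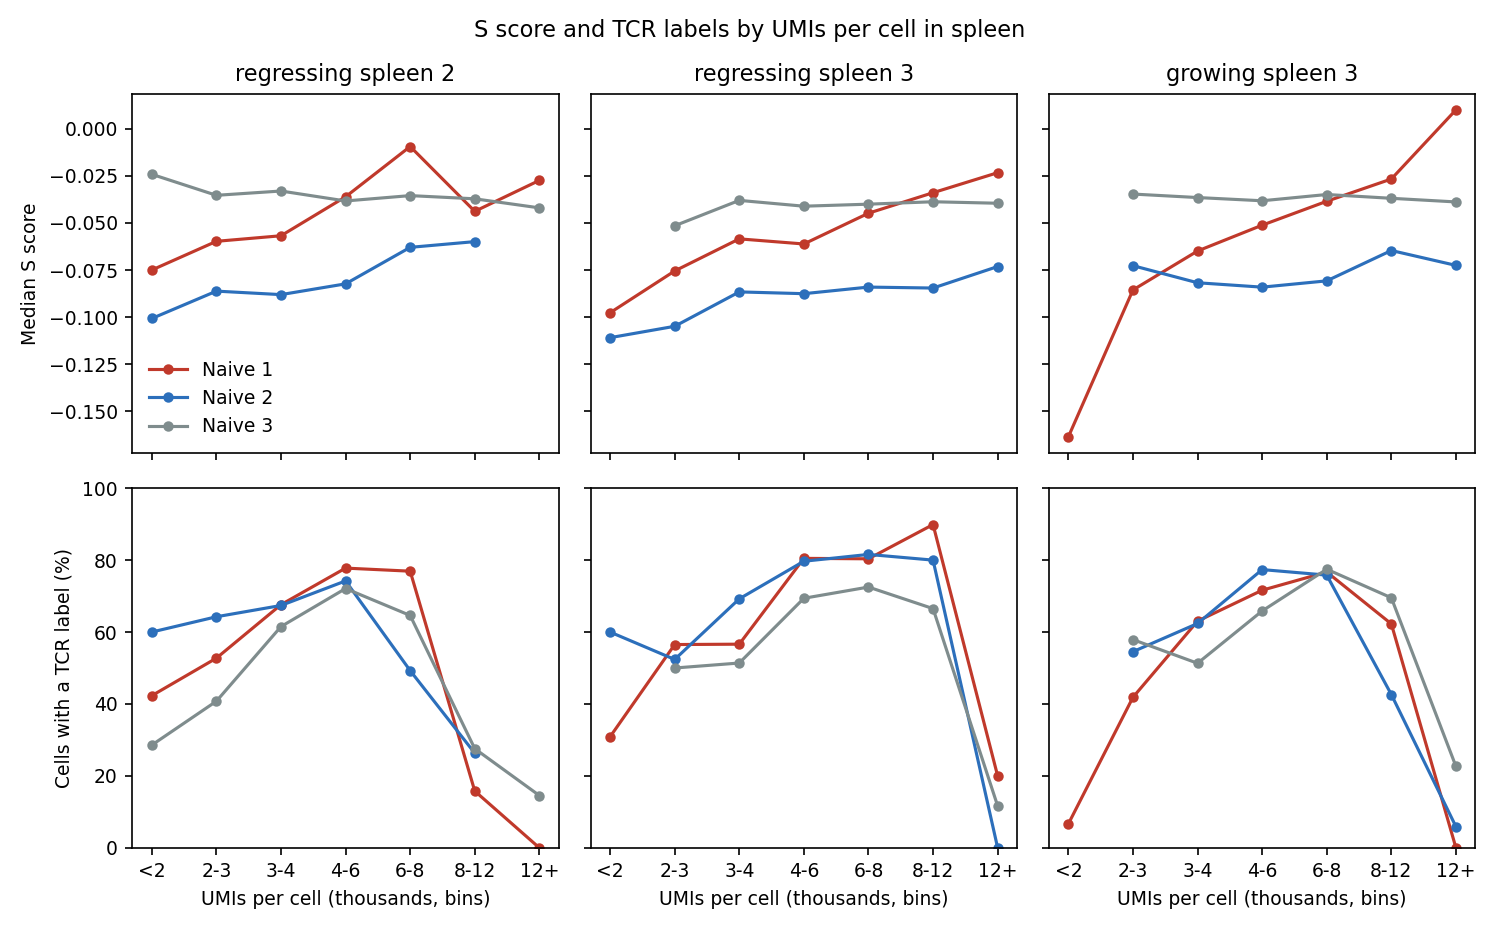
Median S score (top) and share of cells with a TCR label (%, bottom) of the naive clusters in bins of UMIs per cell, for the 3 spleen libraries, with bins of at least 5 cells shown. The Naive 1 line mostly climbs in S score from left to right. It drops to -0.0439 between 8000 and 12000 UMIs in regressing replicate 2. Naive 2 climbs less in the regressing spleens, in regressing replicate 3 mainly in its bins of few cells, and Naive 3 stays nearly flat. The share with a TCR label is low above 12000 UMIs wherever a bin is shown.

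T cell receptor labels come from the receptor libraries, which the labels' protocols describe as made from a part of the 5′ material. A receptor library is also listed for regressing tumour replicate 1, but 0 of its 1655 cells carried a label in the deposited table. In regressing spleen replicate 2, 582 of 873 Naive 1 cells carried one, or 66.7% (exact 95% interval 63.4 to 69.8), against 67.6% of Naive 2 and 58.7% of Naive 3. In regressing replicate 3 it was 71.3% (67.9 to 74.6), against 77.9% and 64.7%. In growing replicate 3 it was 66.2% (62.2 to 70.0), against 71.4% and 67.4%. Naive 1 was below Naive 2 in all 3 spleens, by a mean of 4.24 ± 2.96 percentage points (SD, n = 3; two-sided exact sign-flip p = 0.25, the smallest that 3 libraries allow, and adjusted p = 0.333 over 4 receptor comparisons). It was above Naive 3 in 2 of 3 spleens, by a mean of 4.45 ± 4.99 (exact sign-flip p = 0.50, adjusted p = 0.50). Neither difference passed the threshold, which this design cannot reach.

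Poorer cells carried fewer labels. Of Naive 1 cells under 2000 UMIs, 44 of 135 carried a label in the 3 spleens together, or 32.6% (24.8 to 41.2), while 71.1% of those between 2000 and 12000 did. Per library the share under 2000 UMIs was 42.3%, 30.9% and 6.67%, on 52, 68 and 15 cells. The drop was not particular to Naive 1. Over all spleen clusters labels were on 39.0% of cells under 2000 UMIs and 69.7% of those between 2000 and 12000. In Naive 2 these shares were 57.7% of 26 cells and 72.2%, and in Naive 3 18.2% of 11 cells and 65.5%. With the same mix of UMIs the deficit from Naive 2 shrank to -0.721 ± 0.898 percentage points and changed sign in regressing replicate 2 (0.310). The excess over Naive 3 became 6.09 ± 5.42, with all 3 spleens on one side (5.80, 11.6 and 0.815).

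The authors marked some receptors as top spleen clones and some as groups of similar receptors, and both kinds were rare throughout the growing spleen. In regressing spleen replicates 2 and 3 the clonotype label Top_Spleen covered 310 of 4202 and 396 of 4141 labelled cells, and in the growing spleen 10 of 2736. Of these 716 cells, 2 lay in Naive 1, both in regressing replicate 2, and 0 in Naive 2 or Naive 3, and all other labelled Naive 1 cells of the spleens had the label Other. Receptor similarity groups, which the column header names GLIPH and which gather receptors of like sequence, held 19 of 1501 labelled Naive 1 cells. By library these were 11 of 582 cells (1.89%; exact 95% interval 0.947 to 3.36), 5 of 530 (0.943%; 0.307 to 2.19) and 3 of 389 (0.771%; 0.159 to 2.24) in regressing replicates 2 and 3 and growing replicate 3. Naive 2 had 1.12%, 0.631% and 0.283%, and Naive 3 had 1.61%, 0.289% and 0.761%. Over all clusters the share was 7.88%, 9.18% and 0.841%, so Naive 1 was near the level of its whole library in the growing spleen. These shares over all clusters were not tested against Naive 1.

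Among the naive clusters Naive 1 had the highest share in each spleen, but by very few cells. The mean difference was 0.525 ± 0.233 percentage points from Naive 2 and 0.314 ± 0.324 from Naive 3 (SD, n = 3; exact sign-flip p = 0.25 and adjusted p = 0.333 each). At equal UMIs the difference from Naive 3 turned in growing replicate 3, to -0.275. Of the 19 cells, 10 were in Group 1, 6 in Group 10, 2 in Group 9 and 1 in Group 5. In Group 1 these were 10 of 455 spleen cells of the group, with 8 in Naive 2 and 12 in Naive 3. In Group 10 they were 6 of 38, with 6 in Naive 2 and 9 in Naive 3. Naive 1 held 13.5% of all labelled spleen cells, so its part of Group 10 was near that level.

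The 34 Naive 1 cells of the tumours mostly lay at or beyond the edges of the values seen in the spleens. Their UMIs ran from 903 to 71059, and the cell with 71059, in growing tumour replicate 3, had the most UMIs of all 41099 cells. Another, with 62169 UMIs in growing tumour replicate 2, ranked 6 in the table. Between the 1st and the 99th percentile, spleen Naive 1 cells ran from 1114 to 12048 UMIs. Above that range lay 10 of the 34 tumour cells and below it 2. Median UMIs over all cells ran from 5275 to 11712 in the tumour libraries, highest in growing tumour replicate 3, and from 4638.5 to 6447.5 in the spleens. The part of library depth in these counts was not tested. In at least 1 of the 5 measures (UMIs, genes, mitochondrial percent and both scores), 31 of the 34 (91.2%) fell outside the 1st to 99th percentile of spleen Naive 1 cells, as did 172 of the 2204 spleen cells themselves (7.80%). For Naive 3, measured against its own spleen cells, 338 of 1000 tumour cells (33.8%) fell outside, and for Naive 2 it was 13 of 14.

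Mitochondrial UMIs were mostly low in these tumour cells, with 13 of the 34 below the 1st percentile of spleen Naive 1 cells. Another 3 lay above the 99th, and the highest value was 7.42%. For Naive 3 they were lower in tumours too, with medians of 2.45% to 2.98% in the 5′ tumours and 3.01% to 3.26% in the spleens. Of the 34, 5 had none at all (14.7%; exact 95% interval 4.95 to 31.1), and the whole table held 7 such cells. Library medians were given where there were at least 5 Naive 1 cells. They were 1.87% in regressing tumour replicate 3, 1.53% in growing tumour replicate 2 and 2.07% in growing tumour replicate 3, against 2.86% to 3.18% in the spleens, without overlap. The mean difference was -1.23 percentage points (exact permutation p = 0.10, the smallest that 3 libraries against 3 allow; adjusted p = 0.25 over 5 measures). Taken relative to the other naive cells of each library, the difference was -0.807. The median S score was lower as well, at -0.124, -0.118 and -0.0973 against -0.0565 to -0.0445 (exact permutation p = 0.10, adjusted p = 0.25).

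Median UMIs of the same tumour libraries, 3270, 9614 and 4699.5, fell on both sides of the spleen values (exact permutation p = 0.90). The mean difference of 876.5 UMIs was -999.9 without growing tumour replicate 2. Of the 34 cells, 10 were called G2M (29.4%; exact 95% interval 15.1 to 47.5) and 1 was called S (2.94%; 0.0744 to 15.3). In the spleens 10.2% of Naive 1 cells were called G2M and 19.6% S, pooled over libraries. Over all clusters of the tumours, 2699 of 24542 cells were called G2M and 6649 (27.1%) S. In tumour Naive 3 it was 110 and 196 of 1000 cells. The median G2M score of Naive 1 did not rise with the calls. Its mean over libraries was -0.0827 in the tumours and -0.0563 in the spleens (n = 3 each; exact permutation p = 0.4). With means in place of medians this difference changed sign. The 34 cells come from 5 libraries and were not treated as replicates.

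**Figure D5:**
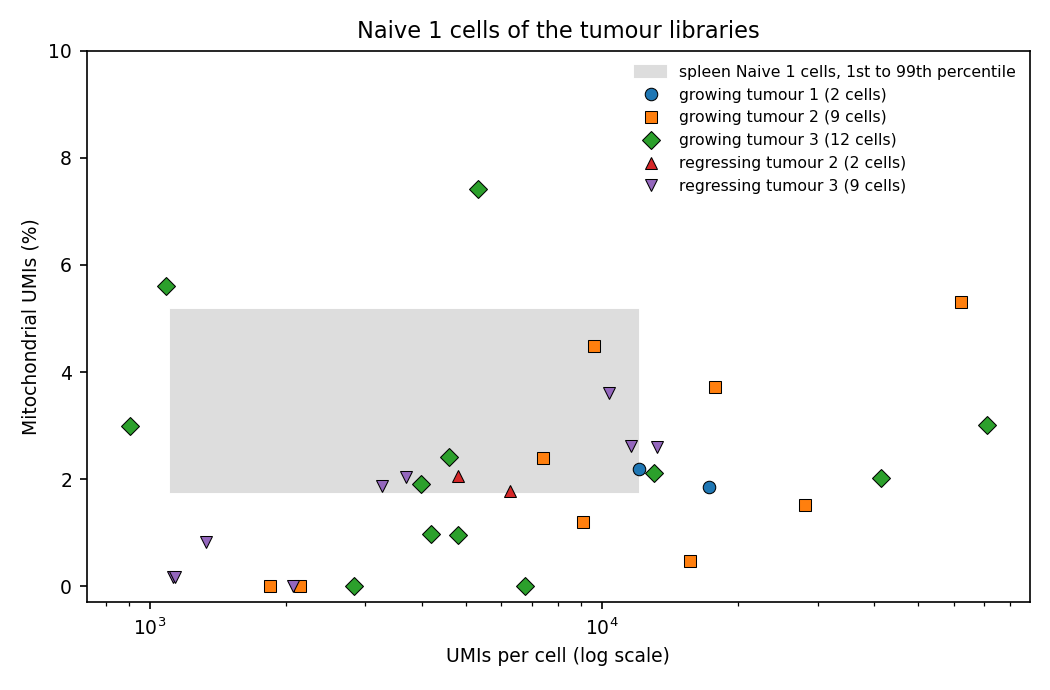
Each point is 1 of the 34 Naive 1 cells of a tumour library, by its UMIs (log scale) and its share of mitochondrial UMIs (%), with the grey box spanning the 1st to the 99th percentile of spleen Naive 1 cells on each axis. Most points lie outside the box, 5 of them at 0% mitochondrial UMIs and 1 at 71059 UMIs.

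Receptor labels were less frequent in the tumour cells, and some belonged to large clones. Of the 32 cells in 5′ libraries, 8 carried a label (25%; exact 95% interval 11.5 to 43.4), against 66.2% to 71.3% in the spleens and 64.4% over all cells of the 5′ tumours. Of these 8, 4 belonged to clonotypes that the authors' table names one by one, 4 had the pooled label, and 5 lay in similarity groups. Over all labelled cells of the 5′ tumours, 66.4% had a named clonotype and 54.8% lay in a similarity group, so these counts were near the level of the tumours as a whole. In tumour Naive 3, 48 of 526 labelled cells (9.13%) lay in a similarity group. The named clonotypes had 84 cells in regressing tumour replicate 3 (Group 2), 493 in growing tumour replicate 2 (Group 3), and 154 (Group 5) and 249 (Group 4) in growing tumour replicate 3. The clonotype of Group 4 also had 100 cells in regressing tumour replicate 2, with 0 of them in Naive 1. Each of the 4 had 1 cell in Naive 1 and 0 in Naive 2 or Naive 3, and its largest part lay in a cluster named exhausted, for example 189 of the 493 cells in Activated Exhausted. The cell with 71059 UMIs belonged to the clonotype of 154 cells.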

How the data were processed

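CD8 T cells of 9 expression libraries were described by the deposited per-cell table. The authors processed the reads with Cell Ranger, per the submitters' processing notes, and its version, the genome build and the treatment of doublets are not given in the sources used here. The table holds the deposited count of UMIs per cell, summed over all genes without normalisation, and the number of genes detected. It also holds the deposited percent of mitochondrial UMIs and, per the file headers, the S and G2M score, under the column names Seurat uses. In 100% of cells the deposited phase was the one those scores give. The authors gave the names of clusters, clonotypes and similarity groups. No cells were removed and no doublets were called. The tables of variants in cultured A223 cells were not used.

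The members and lists were chosen with earlier results of these data known. Libraries were the replicates. Shares and medians of libraries entered two-sided exact permutation tests, and receptor measures of clusters within the 3 spleens entered two-sided exact sign-flip tests, in Python 3.11.15 with scipy 1.17.1. The permutation test of cluster shares was tried on simulated libraries that held counting error alone, with a known difference or none. Spread between libraries was not simulated, and neither were the sign-flip test and the test of medians. Adjusted p-values are Benjamini-Hochberg values. Intervals of shares are exact Clopper-Pearson 95% intervals. Beside a count of 0 stands the share of 3 cells. Strata had bounds of 2000, 3000, 4000, 6000, 8000 and 12000 UMIs, with at least 5 cells of each cluster. Deviations of cluster shares from the state means correlated at 0.830, 0.302 and 0.627 between growing and regressing tumours of the same number (1, 2 and 3). Between those of other numbers they correlated from -0.768 to 0.498. Number 1 was 3′ capture in both states, so number and kit cannot be told apart in the first value. For number 2 the value lay below 0.495 (growing 2 with regressing 3) and 0.498 (growing 3 with regressing 2). These numbers were also used as a block, as an alternative only. Every similarity group or named clonotype with a Naive 1 cell was counted, up to 5 were described (clonotypes by size and group), and no gene was named by its values. The limits of 2000 and 12000 UMIs, the strata, the count of cells at 0% mitochondrial UMIs and the 1st to 99th percentile range were chosen after values were seen. Alternatives were leaving out a library, logit shares, means, a filter at 1000 genes and 5% mitochondrial UMIs, equal mixes of UMIs, other sets of libraries and the replicate block.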

Additional observations from a re-analysis of the deposited data

Results flagged for a closer look

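The share of cells with a TCR label differed between Naive 1 and Naive 3 in opposite directions in the spleens of the 2 states. Naive 1 was higher by 8.01 and 6.60 percentage points in regressing spleen replicates 2 and 3, and differed by -1.25 in growing spleen replicate 3. The difference between the states was not tested, since there was 1 growing spleen. With the same mix of UMIs per cell the values were 5.80, 11.6 and 0.815, so that the growing spleen no longer pointed the other way.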

How the results depend on the processing

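Of 182 recomputed values for 26 results, 157 kept their direction and side of the threshold or moved by less than the spread between libraries. For exact sign-flip tests on 3 spleens the side was fixed in advance, since their smallest p is 0.25. The same held for exact permutation tests on medians of 3 libraries against 3, where it is 0.10. Signs turned in 9 of the 182. Adding the 3′ tumours mixes capture kit with tissue and lowers the smallest possible p. With all 6 tumour libraries the Naive 1 difference in share of library cells between spleen and tumour passed the threshold (13.3 percentage points, exact permutation adjusted p = 0.031). It also passed the threshold on the logit scale (4.57, exact permutation adjusted p = 0.0413). The difference in share of naive cells lost it on the logit scale (2.12) and with the replicate block (16.7 percentage points, exact p = 0.25, the smallest 3 pairs allow), and when any 1 library was left out (16.1 to 19.9), where the smallest possible exact p is 0.0667 or 0.10. Between spleens and tumours of the same state and number, deviations of cluster shares correlated at -0.223, 0.127 and 0.342. Between the other spleens and tumours they correlated from -0.341 to 0.297. Spleens and tumours that share a number were therefore not taken as pairs. With the replicate block the difference between growing and regressing tumours stayed at 0.290 (exact adjusted p = 0.464). The block changed no other call. Within Naive 1, tumour minus spleen, the G2M score turned from -0.0264 to 0.0369 with means in place of medians. Median UMIs turned from 876.5 to -1512 with the replicate block and ranged from -999.9 to 2172 over left-out libraries, and median genes turned from 184.5 to -419 and ranged from -278 to 579. Both turned without growing tumour replicate 2. With equal mixes of UMIs, differences from Naive 3 moved to -31.0 UMIs, 8.67 genes, -0.205 percentage points of mitochondrial UMIs and -0.00741 in S score, the first following from the matching itself. With means they were -1565 UMIs and -294 genes. The G2M score difference from Naive 2, 0.0282, was 0.0288 with the filter, 0.0298 with means and 0.0289 with equal UMIs, shifts beyond an SD of 0.000211. Medians of 9 to 12 tumour cells limit what the tissue comparison within Naive 1 can show.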

Other observations

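Naive 1 cells with many UMIs seldom carried a TCR label. Above 12000 UMIs, 2 of 23 Naive 1 cells of the spleens did (8.70%; exact 95% interval 1.07 to 28.0), with 0 of 6, 2 of 10 and 0 of 7 in regressing replicates 2 and 3 and growing replicate 3. In the same range labels were on 1 of 27 cells in Naive 2, 32 of 211 in Naive 3 (15.2%) and 28.1% over all spleen clusters. Between 8000 and 12000 UMIs the spleens differed in Naive 1, with labels on 15.8% of 19 cells in regressing replicate 2, 89.9% of 89 in regressing replicate 3 and 62.3% of 53 in growing replicate 3.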
